A study of Rattus norvegicus with 12 samples.

Results

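Polyamine metabolism was followed here through 10 genes of rat F111 fibroblasts, an established line that normally grows attached to a surface. The genes were selected on their place in the pathway, with the log2 RMA values of suspended and adherent cells already in view: Odc1, Amd1, Srm and Sms for synthesis, Oaz1, Oaz2 and Azin1 for control of ornithine decarboxylase, and Sat1, Smox and Paox for breakdown. All 10 were measured, by 14 of the 20826 probe sets that carry 1 gene symbol, and they are 10 of the 14217 genes tested. One further probe set carries the symbol of a listed gene together with another symbol and was left out.

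The cells had been kept for 16 h either in suspension on agarose (NA16) or adherent on plastic (A16), in the same medium with serum and with no other agent. The study reports that most F111 cells had lost viability after this time in suspension. Whether dying cells were removed before RNA was taken is not stated in the sources used here. Their part in the results below was not tested. There were 3 arrays per state, named biological replicate 1, biological replicate 2 and technical replicate 2, and each array was deposited as an RMA and as a PLIER column. Values are log2 RMA intensities, where a step of 1 is a doubling of brightness, unless PLIER is named. Each state counts as n = 2 replicates in every mean and SD, because technical replicate 2 was averaged with biological replicate 1. The labels point to that pairing without stating it, and what made a replicate biological is not stated in the sources used here, so the spread between replicates may be technical.

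The polyamines putrescine, spermidine and spermine are small positively charged molecules that bind nucleic acids and that growing cells need. Ornithine decarboxylase makes putrescine, S-adenosylmethionine decarboxylase supplies the aminopropyl group, and spermidine synthase and spermine synthase attach it in turn. Antizymes bind ornithine decarboxylase, send it to the proteasome and restrain polyamine uptake, while antizyme inhibitor, a relative of the enzyme without its activity, captures antizyme. In breakdown, the acetyltransferase encoded by Sat1 marks spermidine and spermine for export or for oxidation by the polyamine oxidase encoded by Paox, and spermine oxidase, encoded by Smox, turns spermine back to spermidine directly. Much of the control of Odc1, Amd1, the antizymes and Sat1 acts on translation and protein stability, which arrays do not measure.

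The upstream sequences of the genes whose transcripts differed most between the states are given first, because those for synthesis (Srm and Amd1) and those for breakdown (Sat1, Smox and Paox) differed in opposite directions. RefSeq windows of the GRCr8 assembly matched 9 of the 10 genes, all but Azin1. The 250 bases before the annotated start are written 5′ to 3′ on the strand of the gene. Capitals mark CACGTG, the E-box core bound by MYC family and related factors, and GGGCGG, the GC box, each searched on both strands (on the other strand the GC box reads CCGCCC). Overlapping matches were counted separately.
Srm (chr5:164308752-164309001, plus strand): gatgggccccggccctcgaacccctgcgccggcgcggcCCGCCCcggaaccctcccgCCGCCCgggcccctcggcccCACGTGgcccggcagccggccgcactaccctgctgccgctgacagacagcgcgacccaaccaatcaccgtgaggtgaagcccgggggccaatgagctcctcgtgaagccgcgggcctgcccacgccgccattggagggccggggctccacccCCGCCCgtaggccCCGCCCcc
Amd1 (chr20:45265983-45266232, minus strand): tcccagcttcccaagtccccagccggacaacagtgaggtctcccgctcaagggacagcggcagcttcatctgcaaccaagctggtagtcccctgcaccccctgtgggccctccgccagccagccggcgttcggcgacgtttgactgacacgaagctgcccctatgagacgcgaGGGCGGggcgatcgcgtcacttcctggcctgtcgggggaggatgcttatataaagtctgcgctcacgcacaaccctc
Sat1 (chrX:44007839-44008088, plus strand): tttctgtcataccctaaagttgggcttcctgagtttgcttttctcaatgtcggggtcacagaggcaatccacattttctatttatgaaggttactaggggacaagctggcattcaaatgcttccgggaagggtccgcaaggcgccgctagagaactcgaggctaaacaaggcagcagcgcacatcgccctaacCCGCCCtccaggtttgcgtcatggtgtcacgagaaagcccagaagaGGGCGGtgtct
Smox (chr3:139204351-139204600, plus strand): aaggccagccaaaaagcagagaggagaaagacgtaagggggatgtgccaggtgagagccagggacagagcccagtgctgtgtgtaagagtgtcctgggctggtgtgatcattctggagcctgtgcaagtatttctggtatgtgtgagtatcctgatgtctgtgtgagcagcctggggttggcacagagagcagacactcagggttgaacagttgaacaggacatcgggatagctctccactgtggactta
Paox (chr1:204349076-204349325, plus strand): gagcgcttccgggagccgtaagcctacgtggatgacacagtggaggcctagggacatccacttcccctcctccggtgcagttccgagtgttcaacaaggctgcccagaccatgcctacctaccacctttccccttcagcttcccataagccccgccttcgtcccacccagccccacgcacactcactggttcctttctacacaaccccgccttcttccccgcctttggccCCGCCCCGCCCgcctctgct
The windows of Amd1, Smox and Sms lie inside the full annotated span of their genes, so they stand before 1 of several starts. CACGTG was found upstream of 2 of the 9 genes, Srm (its first base 173 bases before the start) and Oaz1 (234 bases before), and in 5.59% of all 33469 windows. GGGCGG was found upstream of 8 of the 9 genes and in 30.5% of all windows. Among the printed windows Srm held 4 matches, Sat1 and Paox 2 each, Amd1 1 and Smox 0. Genes that were not called held matches too, with 5 for Odc1, 4 for Oaz2, 3 for Sms and 1 for Oaz1. The Srm window was 78.4% G or C, against 64% for Amd1, 52.8% for Sat1, 53.2% for Smox and 63.2% for Paox, and the windows of Odc1 (78%), Sms (72.8%) and Oaz2 (67.6%) were also rich in G and C, with a median of 51.2% over all windows. These matches describe the letters of the windows and were not tested as binding sites.

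The technical arrays did not side with the same biological replicate in both states. The SD over genes of the log2 difference between technical replicate 2 and biological replicate 1 was 0.286 in NA16 cells and 0.167 in A16 cells. Between technical replicate 2 and biological replicate 2 it was 0.167 in NA16 and 0.265 in A16. The NA16 technical array thus lay nearer to biological replicate 2, and the A16 one nearer to biological replicate 1. Of the 10 fibroblast markers, 8 lay above the median of all genes on each of the 6 arrays, the exceptions being Pdgfrb and Dcn, and Dcn was dim in both states. Of 6 macrophage, 6 epithelial and 4 endothelial markers, 1, Krt8, did so. Cd68, Lyz2, Krt8, Epcam and Pecam1 rose in NA16, that is 2 macrophage, 2 epithelial and 1 endothelial marker, and so did 4 fibroblast markers, with log2 changes of 1.40 for Pdgfrb, 0.78 for Pdgfra, 0.58 for Dcn and 0.47 for Thy1. Thy1 and Dcn passed narrowly (limma adjusted p = 0.043 and 0.045), and the arrays of Thy1 overlapped between the states. None of these lists had a gene that fell. By the same test 21.9% of all genes were called higher and 16.9% lower, and the lists are short. Krt18, the usual partner of Krt8, was dim and not called, with a change of -0.24. The summed intensity of the macrophage markers was 789 to 870 in NA16 and 463 to 543 in A16. The sums were 2711 to 3159 and 1274 to 1455 for the epithelial markers and 290.3 to 294 and 242 to 279 for the endothelial ones. Krt8 alone, at a mean of 11.38 in NA16 and 10.12 in A16, made up most of the epithelial sums. Among the macrophage markers only Cd68 and Lyz2 were called. Ptprc, Adgre1, Csf1r, Cdh1, Krt18, Krt19, Kdr, Tek and Vwf, none of them called, lay between 4.71 and 5.86 at the mean of either state. The remaining uncalled markers of these lists were brighter, with Itgam at 6.79 in NA16 and 6.81 in A16, and Esrp1 at 6.17 and 6.16. The part of other cell types in the results below was not tested.

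In suspended cells all 3 breakdown genes rose and 2 of the 4 synthesis genes fell, while the genes that control ornithine decarboxylase did not pass the test. By limma over all 14217 genes, at an adjusted p below 0.05, 3 of the 10 genes rose (Sat1, Smox and Paox), 2 fell (Srm and Amd1) and 5 were not called. Over all genes 21.9% were called higher and 16.9% lower. The median log2 change of the 10 genes was -0.23, beside 0.01 over all genes tested. Since these values were known when the list was drawn up, the counts, folds and calls of its members are a description and carry no weight as evidence. In bulk RNA a lower level per cell and fewer cells that hold the transcript cannot be told apart.

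Srm, the spermidine synthase gene, was the member that differed most. It had 7.83, 8.38 and 8.38 in the NA16 arrays (biological replicate 1, biological replicate 2 and technical replicate 2), against 11.33, 11.71 and 11.57 in the A16 arrays. No array of one state came near those of the other, and biological replicate 1 was the lowest array within both states. The means were 8.24 ± 0.19 in NA16 and 11.58 ± 0.18 in A16 (SD, n = 2), a log2 change of -3.34 with a moderated SE of 0.15, so the intensity was 10.1-fold lower. Only 3 of the 14217 genes had a lower log2 change. Leaving out any 1 replicate gave changes of -3.47 to -3.20, and the PLIER columns gave -3.38.

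The 5 genes whose values lay closest to those of Srm over the 6 arrays were Tnfrsf12a, Acat2, Sfpq, Ddx21 and Tk1. Likeness was the root mean square difference of log2 values after each gene was centred on its own mean, and it ran from 0.18 for Tnfrsf12a to 0.34 for Tk1, with a median of 1.69 over all genes. With 2 states and 6 arrays, this measure mostly finds genes of similar change: these 5 were 7.07-fold to 9.90-fold lower in NA16.

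Amd1, the S-adenosylmethionine decarboxylase gene, was the other synthesis gene that fell. It had 9.87, 9.69 and 9.78 in the NA16 arrays, against 10.67, 10.51 and 10.76 in the A16 arrays, again without overlap. The log2 change was -0.86 (SE 0.13), or 1.81-fold lower, and it stayed between -0.96 and -0.75 with each replicate left out in turn.

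The genes for the first and the last step of synthesis differed less. Odc1, the ornithine decarboxylase gene, had 12.46, 12.47 and 12.57 in the NA16 arrays, against 12.79, 12.85 and 12.77 in the A16 arrays. The states did not overlap, but the log2 change of -0.32 (SE 0.11) was not called; its 95% interval, not adjusted for the number of genes, ran from -0.58 to -0.06. Sms, the spermine synthase gene, was read by a pair of probe sets. The brighter one had 11.49, 11.59 and 11.50 in NA16, against 11.67, 11.78 and 11.63 in A16, with a log2 change of -0.17 (SE 0.12, 95% interval -0.45 to 0.10). The dimmer one had 10.68, 10.60 and 10.71 in NA16, against 10.98, 11.29 and 10.98 in A16, with a change of -0.49 (SE 0.14). Neither was called, and on both the NA16 arrays lay below the A16 arrays. All 4 synthesis genes therefore had every NA16 array below every A16 array, as did 23.9% of all genes tested. They spread widely in size, by a factor of 10.1 for Srm against 1.13 for Sms and 1.25 for Odc1.

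**Figure D1:**
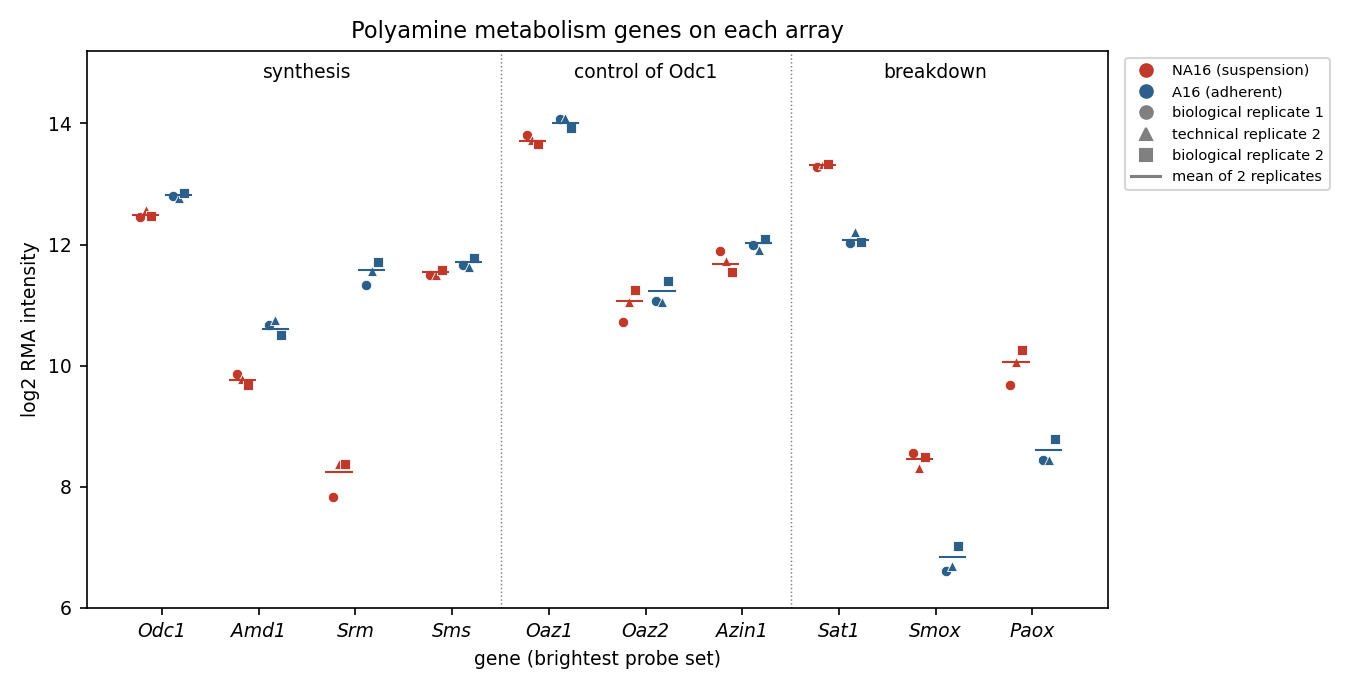
Log2 RMA intensity (y axis) of the 10 polyamine genes by role (x axis) on each of the 3 NA16 (left, red) and 3 A16 (right, blue) arrays, each by its brightest probe set; symbols are arrays and short lines are the means of n = 2 replicates. Srm averaged 8.24 in NA16 and 11.58 in A16, the 3 breakdown genes lay above A16 on every NA16 array, and Oaz2 overlapped between the states.

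None of the 3 genes that control ornithine decarboxylase was called. Oaz1, the gene of the main antizyme, had 13.80, 13.67 and 13.73 in the NA16 arrays, against 14.07, 13.93 and 14.09 in the A16 arrays. This was a small difference without overlap, with a log2 change of -0.29 (SE 0.12, 95% interval -0.57 to -0.0073). Oaz2, a second antizyme gene, had 10.71, 11.26 and 11.06 in NA16, against 11.07, 11.39 and 11.05 in A16. Its arrays overlapped, and so did those of its dimmer probe set (10.32, 10.44 and 10.49 in NA16, against 10.48, 11.00 and 10.34 in A16). The changes were -0.16 (SE 0.17) for the brighter probe set, with a 95% interval of -0.57 to 0.26, and -0.29 (SE 0.21) for the dimmer one.

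Azin1, which encodes the inhibitor of antizyme, was read by 3 probe sets that did not give the same picture. The brightest had 11.89, 11.54 and 11.73 in NA16, against 11.99, 12.10 and 11.91 in A16, and its log2 change was -0.35 (SE 0.14, 95% interval -0.67 to -0.02). The states were apart there only by the narrow gap between the highest NA16 and the lowest A16 array. The next had 11.53, 11.11 and 11.16 in NA16, against 11.72, 11.52 and 11.76 in A16, a change of -0.40 (SE 0.14) with a slight overlap. The dimmest stood at 6.60 ± 0.08 in NA16 and 6.62 ± 0.32 in A16 (SD, n = 2), a change of -0.01. For none of these 3 genes does the missed threshold show that the states had the same level.

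All 3 breakdown genes rose, and in each the NA16 arrays lay above every A16 array, as in 27.8% of all genes tested. Sat1, the acetyltransferase gene, had 13.28, 13.32 and 13.34 in the NA16 arrays, against 12.02, 12.04 and 12.20 in the A16 arrays. The means were 13.32 ± 0.01 in NA16 and 12.08 ± 0.05 in A16 (SD, n = 2). In A16 technical replicate 2, at 12.20, lay above both biological replicates, a distance that the SD after averaging shows only in part. The log2 change was 1.24 (SE 0.11), or 2.36-fold higher, and 1.21 to 1.28 without any 1 replicate.

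Smox, the spermine oxidase gene, had 8.56, 8.50 and 8.30 in the NA16 arrays, against 6.60, 7.02 and 6.69 in the A16 arrays. It was 3.10-fold higher, a log2 change of 1.63 (SE 0.15), and it lay below the median of all genes on every array of both states. The size depended on the algorithm. In the PLIER columns the NA16 arrays had 8.53, 8.95 and 9.04, against 6.29, 6.63 and 6.15 in the A16 arrays, and the change was 2.44. With 16 subtracted from the RMA intensities, a constant that may have been added before deposit, it was 1.79.

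Paox, the gene of the oxidase that acts on acetylated polyamines, had 9.68, 10.26 and 10.07 in the NA16 arrays, against 8.44, 8.79 and 8.44 in the A16 arrays. Biological replicate 2 was the highest array in both states. The log2 change was 1.45 (SE 0.18), or 2.74-fold higher, with 1.26 to 1.65 as the range when 1 replicate was left out. Among all genes the changes of Smox, Paox and Sat1 ranked 327th, 464th and 697th from the highest, and that of Amd1 1135th from the lowest.

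Probe set by probe set, in a fit over all 20826, the same 5 genes supplied all calls. Of their probe sets 3 were higher and 2 lower, and 9 of the members' probe sets were not called. Over all probe sets 16.9% were called higher and 15% lower. Each of these 5 genes has a single probe set, so this fit used the same values again. It gives no second reading of them. Both or all probe sets of Sms, Oaz2 and Azin1 had changes below 0 in the RMA columns. In the PLIER columns the dimmest Azin1 probe set was at 0.01, and the other 13 had the sign of their RMA change.

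**Figure D2:**
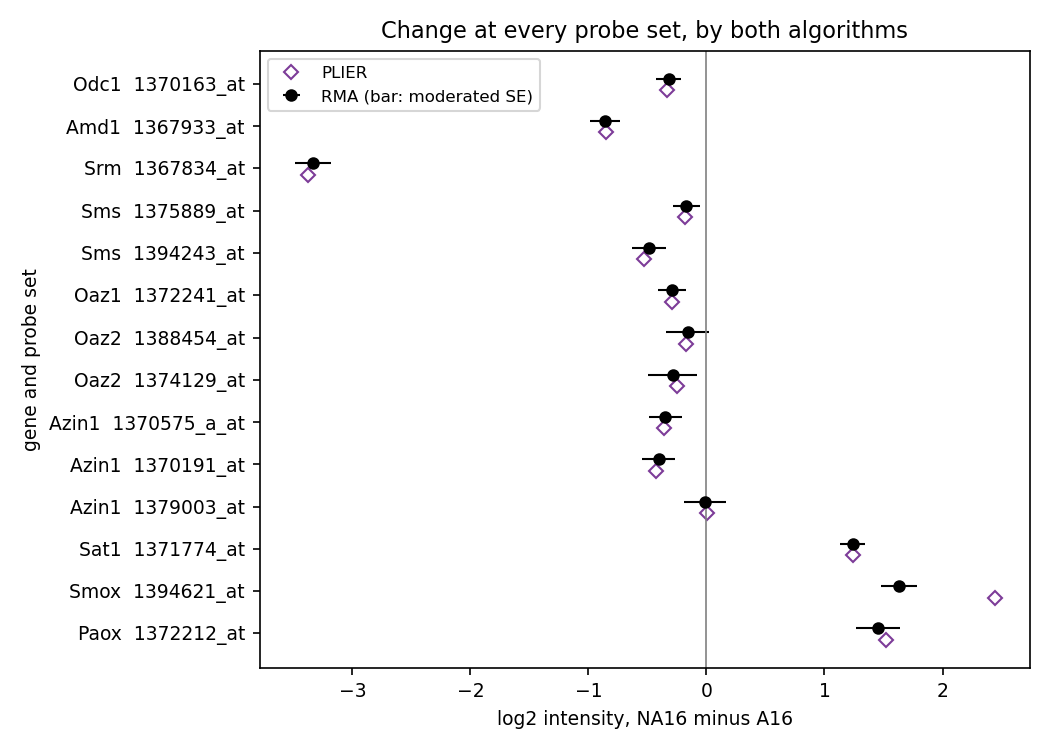
Difference in log2 intensity, NA16 minus A16 (x axis), at the 14 probe sets of the 10 genes (y axis), from the RMA columns (filled, bar is 1 moderated SE) and the PLIER columns (open). Srm lies at -3.34 by RMA and -3.38 by PLIER, and the algorithms differ most for Smox, at 1.63 by RMA and 2.44 by PLIER.

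Further genes around the pathway, none of them members, moved in both directions. Of 51 listed, 45 were measured, 8 rose and 8 fell by limma, beside 21.9% and 16.9% of all genes, and their median log2 change was 0.04. In the supply of ornithine and arginine, 2 of 12 rose and 1 fell. Aldh18a1, which encodes the enzyme that starts proline and ornithine synthesis from glutamate, had 10.05, 10.26 and 10.25 in NA16, against 11.17, 10.99 and 11.41 in A16. This was a clear separation, with a log2 change of -0.93 (SE 0.14, limma adjusted p = 0.002). Asl, the argininosuccinate lyase gene of arginine synthesis, was 1.73-fold higher (adjusted p = 0.0027) and Arg2, the mitochondrial arginase gene, 1.46-fold higher (adjusted p = 0.0068). The liver arginase gene Arg1 stayed near the bottom of the scale, at 5.08 in NA16 and 5.09 in A16.

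In the methionine cycle and the salvage of methylthioadenosine, the by-product of spermidine and spermine synthesis, 2 of 12 genes rose and 3 fell. The shares over all genes were 21.9% and 16.9%. Mat2a encodes the catalytic subunit that makes S-adenosylmethionine, the substrate of the Amd1 product. It had 10.77, 10.66 and 10.75 in NA16, against 11.99, 12.04 and 12.09 in A16, 2.51-fold lower (limma adjusted p = 2.1e-04). With the mean of all its probe sets the log2 change was -1.10, against -1.33 for the brightest. Mat2b, which encodes the regulatory subunit of the same enzyme, had 12.42, 12.33 and 12.38 in NA16, against 11.29, 11.06 and 11.26 in A16, 2.30-fold higher (adjusted p = 4.6e-04). The transcripts of the catalytic and the regulatory subunit thus differed in opposite directions, each without overlap. Mri1, an isomerase gene of the salvage route, was 1.56-fold higher (adjusted p = 0.0042).

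Ahcy, whose product clears S-adenosylhomocysteine, was 1.46-fold lower and Enoph1, a salvage enzyme gene, 1.29-fold lower. By limma the adjusted p of Ahcy was 0.02 and that of Enoph1 0.035. When a replicate is left out, its state keeps 1 sample, which is assumed to vary like the other state, so a call lost in such a fit also reflects the smaller design. For Ahcy the call was lost without A16 replicate 1 (0.103), without NA16 replicate 1 (0.138) and with the technical arrays left out (0.0559), in a range of 0.0057 to 0.138 over its alternatives, with log2 changes of -0.66 to -0.43 when 1 replicate was left out. The call of Enoph1 was lost whichever NA16 or A16 replicate was left out (0.0877 to 0.252), though its change stayed between -0.39 and -0.35, against -0.37 with all. It was also lost with 16 subtracted, with arrays centred on their medians, in the PLIER columns, without the technical arrays and with a trended and robust variance (0.0571 to 0.0909), in a range of 0.0064 to 0.252 over all alternatives. Mtap, which opens the salvage route, had a log2 change of -0.17 (adjusted p = 0.3).

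Spermidine is also the donor for hypusine, a modified lysine found in the translation factor encoded by Eif5a. Eif5a had 12.96, 13.06 and 13.15 in NA16, against 14.12, 14.09 and 14.13 in A16, 2.07-fold lower (limma adjusted p = 4.5e-04). Eif5a2, which encodes a second form of the factor, had 10.23, 9.93 and 10.10 in NA16, against 9.42, 9.43 and 9.48 in A16, 1.52-fold higher (adjusted p = 0.0081). These close relatives moved apart, but the Eif5a2 call was lost without NA16 replicate 1 (adjusted p = 0.0755, with alternatives from 8.6e-04 to 0.0755), where NA16 had 1 sample and the log2 change was 0.49, against 0.61 with all. With the mean of all its probe sets, Eif5a2 had a smaller log2 change of 0.41. Of the modifying enzyme genes, Dohh was 1.35-fold lower (adjusted p = 0.029), a log2 change of -0.43. Its call was lost when any NA16 or A16 replicate was left out, with 1 sample in that state (0.0573 to 0.258, changes of -0.51 to -0.35), and with the technical arrays left out (0.0601), in a range of 0.0070 to 0.258 over all alternatives. Dhps had a log2 change of -0.15 (adjusted p = 0.59).

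Among 9 measured transport genes 3 rose and 1 fell, beside 21.9% and 16.9% of all genes. Slc3a2, the heavy chain shared by several amino acid exchangers and linked to polyamine export, had 13.06, 13.20 and 13.26 in NA16, against 12.25, 12.05 and 12.21 in A16, 2.06-fold higher (limma adjusted p = 6.7e-04). Atp13a2, a lysosomal polyamine pump, was 1.51-fold higher (adjusted p = 0.0062) and Slc18b1, a vesicular polyamine transporter, 1.57-fold higher (adjusted p = 0.0063). Slc7a5, a light chain partner of Slc3a2, had 9.29, 9.78 and 10.38 in NA16, against 9.95, 10.34 and 10.51 in A16. Its arrays overlapped, and its call (log2 change -0.47, adjusted p = 0.015) rested on how the technical arrays were paired. It was lost with them averaged with biological replicate 2 (0.262), with every array as its own replicate (0.215) and with them left out (0.0915). It was also lost without A16 replicate 2 (0.0706), NA16 replicate 1 (0.0682) or NA16 replicate 2 (0.114), in a range of 0.0034 to 0.262 over all alternatives.

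Of 8 measured regulators and further breakdown genes, 1 fell and 0 rose, beside 16.9% and 21.9% of all genes. Myc, whose product is known to act on the Odc1 gene, had 9.93, 9.96 and 10.11 in NA16, against 10.61, 10.52 and 10.56 in A16, 1.47-fold lower (limma adjusted p = 0.0069). Without NA16 replicate 2, which leaves NA16 with 1 sample, the log2 change was -0.53, against -0.56 with all, and the adjusted p was 0.0516, just past the threshold (alternatives from 0.0011 to 0.0516). Azin2, Oaz3, Sat2, Aoc1, Hdac10, Aldh9a1 and Nqo1 were not called, with log2 changes between -0.25 for Sat2 and 0.24 for Azin2.

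**Figure D3:**
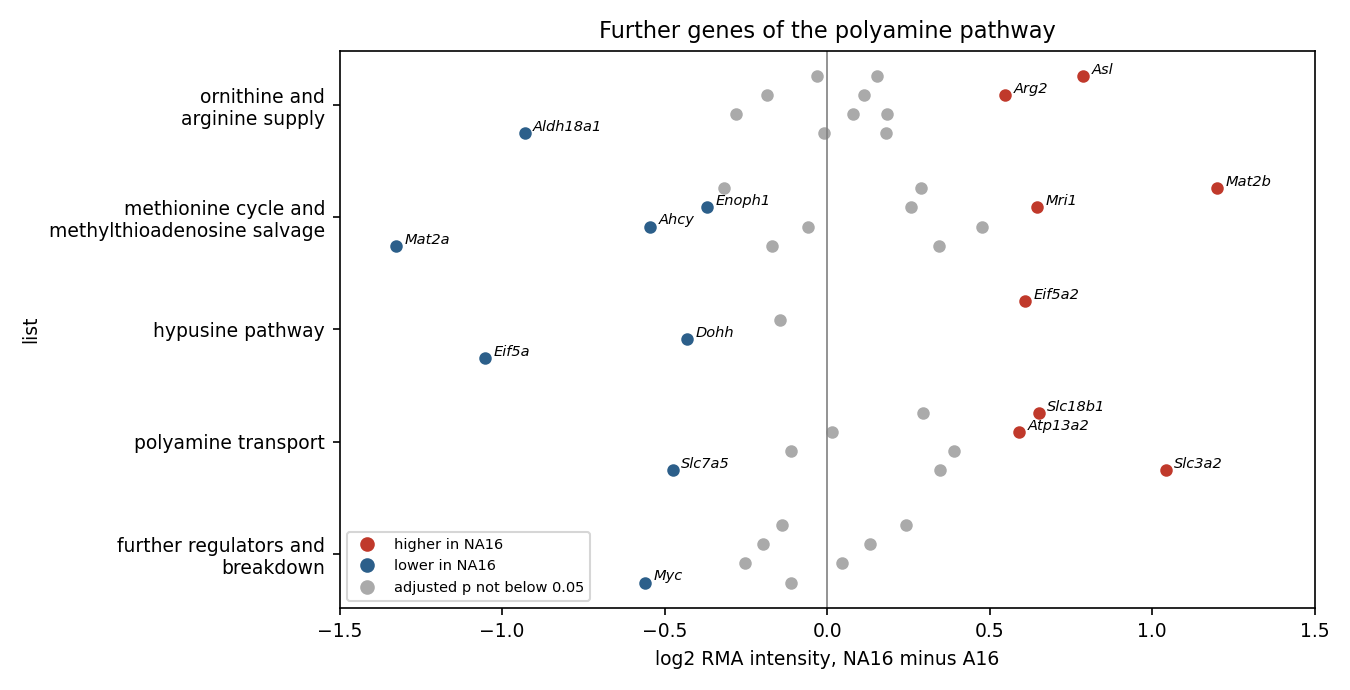
Difference in log2 RMA intensity, NA16 minus A16 (x axis), of the 45 measured genes of 5 further pathway lists (y axis); red genes were higher and blue genes lower by limma at an adjusted p below 0.05, grey ones were not called, and the vertical position within a list has no meaning. Mat2a and Mat2b lie at opposite ends, at -1.33 and 1.20.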

How the data were processed

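Total RNA of F111 cells was labelled and hybridised to Affymetrix rat arrays; per the study's methods the scans were read with the GeneChip Operating Software and normalized in Avadis by RMA and by PLIER (version of neither stated). The values deposited by the authors are intensities on a linear scale. The lowest RMA value of an array was 16.1 to 17.6 and the lowest PLIER value 16.0, so a constant may have been added, which would understate changes of dim genes. The median RMA intensity was 153 to 158 per array. Log2 was taken here.

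The 12 columns are 6 arrays by both algorithms. The platform annotation gave 1 symbol to 20826 of the 31042 probe sets other than controls, several to 436 and none to 9780; 20758 matched RefSeq (GRCr8) by Entrez identifier and 0 symbols changed. A gene was read by its brightest probe set (mean log2 RMA over the arrays). The test of NA16 over A16 used limma 3.58.1 (lmFit, eBayes; R 4.3.3) on 2 against 2 replicates, with p-values adjusted by Benjamini-Hochberg over 14217 genes; residual degrees of freedom were 2 and prior ones 4.78. The script was tested on simulated data. The number of arrays limits the precision. The members and lists were chosen with earlier results of these data known. Named besides the members were, per further list, up to 3 called genes in each direction, with Myc, and the 5 genes most like Srm; others were chosen after their values were seen. Alternatives covered the algorithm, dim genes, the constant, normalization, the technical arrays, probe sets, the variance, a replicate block, single replicates and the methods' t-test.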

Additional observations from a re-analysis of the deposited data

How the results depend on the processing

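The 10 genes kept their direction and their side of the threshold in 141 of 150 values over 15 alternatives. Part of this was fixed in advance. Leaving out dim genes, the trended and robust variance and the replicate block keep each log2 change, so only the adjusted p could move. The mean of all probe sets keeps the change of a gene read by a single probe set. The tally describes genes chosen with these values known. The methods' t-test, given below, is not among these 15, and member calls were lost with it. Oaz2, not called, changed sign: with 1 replicate left out its log2 change ranged from -0.34 to 0.03, with 0.0095 without A16 replicate 2 and 0.027 without NA16 replicate 1. In 7 values Odc1, Oaz1 or Azin1 passed. Members called lower were 4 with every array as its own replicate, 4 with a trended and robust variance, and 5 with the replicate number as a replicate block. The numbers share no stated origin; the deviations of replicate 1 in the states correlated at 0.56 over genes, and the block raised the share of all genes called to 49.4%, against 38.9% without it. Further pathway genes called higher were 14 and lower 9 with that block, and those called lower were 4 without the technical arrays and 4 to 5 with 1 replicate left out. By the methods' t-test at an unadjusted p below 0.05 with 2-fold change, 3 members were higher and 1 lower, and 2 further genes higher and 2 lower. After Benjamini-Hochberg adjustment that t-test called 0 members and 0 further genes in either direction, and 13 genes higher and 7 lower in all. At an unadjusted p below 0.05 alone it called 3 members higher and 3 lower, and 9 further genes higher and 8 lower. The 16 named further genes kept their call in 215 of 240 values over the same 15 alternatives, a comparison added after seeing the data. All 16 were called in the main fit, so a call could only be lost. The cause of these shifts was not tested. The median of the members stayed between -0.28 and -0.19. The 2 replicates per state limit what can be called among small differences.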
